A study of Mus musculus with 22 samples.

Results

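Distal Oct4 peaks inside gene bodies were taken from the 2 peak lists of an Oct4 ChIP-seq experiment on mouse atherosclerotic aorta. A peak was selected on its measured position: its summit lay on chr1 to chr19, inside the body of a protein-coding gene, and more than 10000 bp from the nearest protein-coding transcript start (GENCODE M21, GRCm38). Bins of 1 Mb that held 20 or more summits in either list were left out. This gave 790 of 5455 peaks of the wild-type list and 1393 of 7479 peaks of the knockout list, together 2183 of 12934, and the 2 lists were kept apart throughout. Because the members were chosen by where peaks were called, their number and their place in genes are descriptions and not findings.

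The wild-type list came from SMC Oct4-WT/WT mice and the knockout list from their SMC Oct4-Δ/Δ littermates, all on C57BL/6 and of a line the study describes as apoE deficient. In the SMC Oct4-Δ/Δ mice the Oct4 gene (Pou5f1) was deleted by a tamoxifen-inducible Cre under the Myh11 promoter, which acts in smooth muscle cells (SMC) and leaves Oct4 intact in the other cells of the vessel. The Cre transgene (Myh11-CreERT2) lies on the Y chromosome, so these mice were males, and the line also carries an eYFP reporter. By the study's methods, mice of both genotypes received tamoxifen. Mice were fed a Western diet for 18 weeks, and frozen aortic segments from the root and arch up to the division of the carotid arteries, 15 mice per genotype, gave 1 ChIP sample per genotype. The tissue held SMC, macrophages and other cells, so fewer cells with a bound site and less binding per cell cannot be told apart, and a peak in the knockout list can come from cells that kept Oct4. The peak lists hold no expression values, and neither the deletion nor the cell types was checked here.

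Oct4 is a POU-family transcription factor, best known from pluripotent stem cells, where it binds an 8-letter site called the octamer, often beside a SOX factor. In stem cells most such sites are distal to gene starts, and many are enhancers within introns. An enhancer in an intron can act on its host gene or on another gene, so a host gene is a position and not a target.

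With 1 sample per genotype there was no replicate check, no test was made of genotypes, and every interval given is an exact 95% interval that covers counting error within these samples only. Total read numbers are not in the files used, so depth is known only through the fragment pileup. Fold enrichment is the authors' ratio of the fragments piled up at the summit, plus 1, to the expected pileup, plus 1. The expected pileup, in fragments, was 0.458 for the wild-type and 0.462 for the knockout list, so 1 fragment more at a summit adds 0.686 or 0.684 to the fold. This 1 value per list fitted the fold of every peak in it, with largest residuals of 6.9e-06 and 7.6e-06. The fold thus holds no correction for background that differs from place to place. The pileup at members' summits ran from 5 to 82 fragments for the wild-type list, and for the knockout list from 5 to 78. Members were narrow, with a median width of 48 bp (quartiles 42 and 56) in the wild-type and 46 bp (40 and 53) in the knockout list. The narrowest peaks of the whole lists were 41 and 39 bp wide.

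Sequences under some of the strongest summits are given first, since the results turn on the repeats they hold. All are from the GRCm38.p6 reference, plus strand, 50 bp to each side of the summit. The summits in 2210408I21Rik and in Cdk5rap2, a centrosomal protein, held a word of the mouse major satellite, the repeat of pericentromeric chromatin (TATGGCGAG or TATGGCAAG, either strand), which is in capitals.
2210408I21Rik, chr13:77438908-77439008: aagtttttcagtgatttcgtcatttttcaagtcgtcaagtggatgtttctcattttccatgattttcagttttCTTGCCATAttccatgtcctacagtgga
Cdk5rap2, chr4:70378137-70378237: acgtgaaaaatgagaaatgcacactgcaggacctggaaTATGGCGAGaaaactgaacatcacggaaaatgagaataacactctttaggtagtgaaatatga
The summits in Dpp9, a dipeptidyl peptidase, and Myo7a, a myosin of sensory hair cells, lay in tandem repeats of GGAAT, in capitals as GGAAT or ATTCC.
Dpp9, chr17:56200004-56200104: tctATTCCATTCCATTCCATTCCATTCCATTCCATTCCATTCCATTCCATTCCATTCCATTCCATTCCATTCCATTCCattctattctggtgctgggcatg
Myo7a, chr7:98060007-98060107: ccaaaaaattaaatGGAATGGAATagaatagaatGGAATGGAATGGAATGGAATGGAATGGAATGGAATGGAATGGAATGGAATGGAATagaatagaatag
The summits in Pde1c, a calmodulin-dependent phosphodiesterase that is made in proliferating SMC, and in Dop1b lay in the repeat of chromosome ends, TTAGGG.
The summits in Plxdc2, Ybx3 and Lipc, which encodes hepatic lipase, shared words of 12 letters with the 7SL RNA genes Rn7s1 and Rn7s2. The 7SL RNA is part of the signal recognition particle and is the ancestor of the mouse B1 repeats.

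The first 6 of these windows belonged to the 10 members with the largest folds in the wild-type list, and a knockout peak lay over each of the 9. In Dpp9 the fold was 56.9 (82 fragments, interval of the fold 45.4 to 70.5) in the wild-type and 54.0 (78 fragments, 42.9 to 67.3) in the knockout list. In 2210408I21Rik it was 55.5 (80 fragments) and 54.0 (78 fragments), and in Cdk5rap2 it was 55.5 (80 fragments) and 52.7 (76 fragments). Each knockout value lay inside the wild-type interval of its gene. Among the other members of these 10, Chl1, a neural adhesion molecule related to L1 whose summits were in another class of masked repeat, had 56.9 and 54.0, and Myo7a had 52.8 and 51.3. Mdga2, a regulator of synaptic adhesion, had 50.7 and 47.2, and Ano2, a calcium-activated chloride channel, had 50.1 and 50.6. Pde1c had 45.3 and 43.8, Mamdc2 had 43.9 and 43.8, and Dop1b had 39.8 and 36.9. In the knockout list 9 of these genes were again among the 10 largest, and Plxdc2 took the place of Dop1b with a fold of 43.8 against 38.4 in the wild-type. All of these summits were in introns, for example intron 3 of 18 in Pde1c, 129 kb from the nearest start.

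For every summit the sequence within 100 bp of it was put into 1 of 10 groups, tried in a fixed order, and the same was done for 348859 windows of equal length in the sequence where a member could lie. That sequence, gene bodies more than 10000 bp from a start and outside the dense bins, spanned 702.5 Mb, 28.5% of chr1 to chr19. The groups were chosen after these sequences had been seen, so their sizes are a description. The telomeric group, with at least 3 copies of TTAGGG in a row, held 44 members of each list, 5.57% of the wild-type (interval 4.08 to 7.41) and 3.16% of the knockout members (2.30 to 4.22), against 0.00315% of the windows. The 7SL-like group held 99 wild-type members (12.5%, interval 10.3 to 15.0) and 179 knockout members (12.8%, 11.1 to 14.7), against 0.748% of the windows. Runs of 12 or more A (or T) held 14.3% and 12.5% against 2.35%, and runs of 12 or more C (or G) held 4.81% and 2.66% against 0.331%. The group of GGAAT repeats had 6 wild-type and 7 knockout members and no window, and the major satellite group had 7 and 6 members (0.886% and 0.431%) against 0.158% of the windows. The major satellite group needed only 1 match to a word given above. Its folds ran from 8.23 to 55.5 in the wild-type and from 17.1 to 54.0 in the knockout list. Windows with neither a listed repeat nor a repeat-masked summit were 68.5% of eligible windows but 13.3% of wild-type and 13.5% of knockout members.

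**Figure D1:**
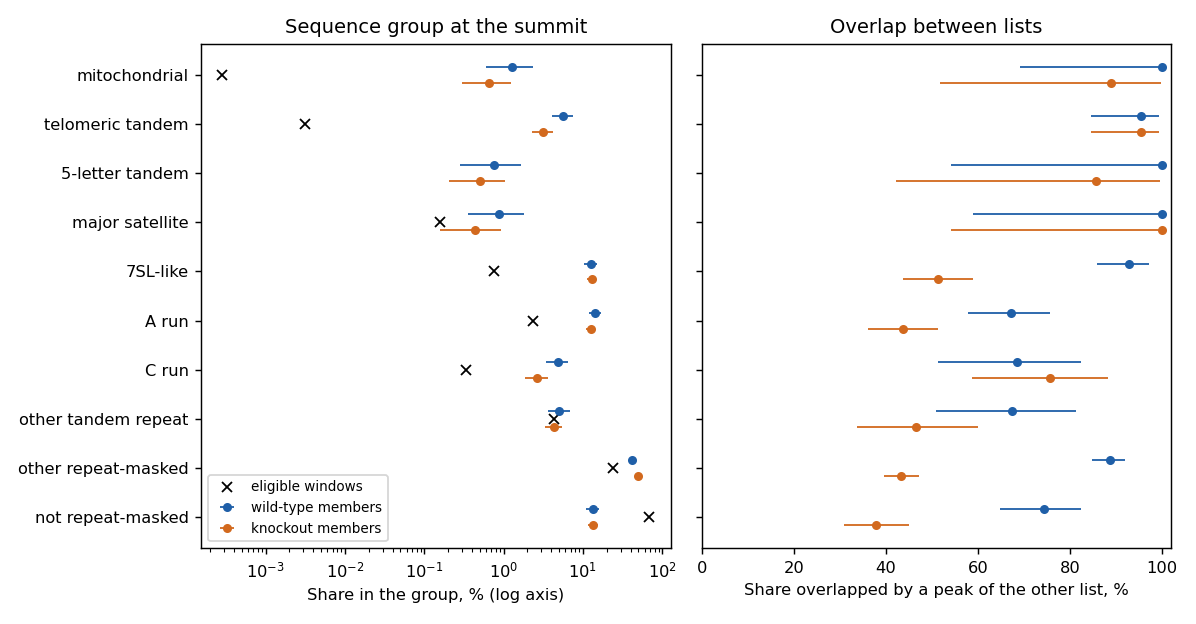
Left, the share of wild-type members (blue), knockout members (orange) and eligible windows (crosses) in each sequence group, in % on a log axis, and right, the share of members overlapped by a peak of the other list, in %, with exact 95% binomial bars on both sides. The telomeric group lies furthest to the right at 95.5% in both lists among the groups with over 10 members, while the 7SL-like group is at 92.9% of wild-type and 51.4% of knockout members.

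Over all members, 660 of 790 wild-type summits (83.5%, interval 80.8 to 86.1) and 1169 of 1393 knockout summits (83.9%, 81.9 to 85.8) were on a base that the reference marks as repeat, against 27.9% of eligible sequence. Peaks at the other positions of chr1 to chr19 outside the dense bins had 81.1% and 81.3%. The distal intragenic peaks were thus close to other peaks in this measure, and no difference was tested. The median GC content of the windows was 43.8% for the wild-type and 43.3% for the knockout list, against a mean of 42.3% of eligible windows. A median copy number of 2 or more in the reference, over the words of 31 bases within 100 bp of the summit, was found for 22.9% of wild-type and 15.8% of knockout members.

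At the largest folds most summits were in these repeats. Of the 34 wild-type members with a fold of 25 or more, 28 belonged to the mitochondrial, telomeric, GGAAT, major satellite or 7SL-like groups, and all 34 were overlapped by a knockout peak. In the knockout list this held for 33 of 42, and all 42 were overlapped by a wild-type peak. At a fold of 15 or more, 63 of 122 wild-type and 84 of 187 knockout members were in these groups, which is under 50% in the knockout list. The median fold was 17.1 for the wild-type and 16.8 for the knockout list for telomeric members, 44.6 and 43.1 for GGAAT members, and 43.9 and 45.5 for major satellite members. Members with no listed repeat and an unmasked summit had medians of 7.54 and 7.52, near the overall medians of 8.23 (quartiles 6.86 and 11.0) and 8.21 (6.84 and 11.6).

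Of the wild-type members, 655 (82.9%, interval 80.1 to 85.5) were overlapped by a knockout peak by at least 1 bp, and 135 were not. Among all wild-type peaks on chr1 to chr19 outside the dense bins the share was 80.2%. Of the knockout members, 656 (47.1%, 44.4 to 49.8) were overlapped by a wild-type peak, against 47.3% of all knockout peaks in the same sequence. Both shares were close to the background, and neither is a result about peaks in gene bodies. The share was higher at larger folds: in the wild-type list 6 of 43 members under 6-fold, 209 of 285 from 6 to 8-fold and all 122 at 15-fold or more were overlapped. In the knockout list the same classes gave 8 of 47, 96 of 515 and 185 of 187.

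The folds of the 655 wild-type members and the knockout peaks over them were compared pair by pair, each with 1 sample. Summits with the same number of fragments have a ratio of 0.998, since the expected pileup differs slightly, so pairs were counted by fragments. The knockout summit had more fragments in 450 pairs, as many in 58 and fewer in 147, with a median fold ratio of knockout to wild-type of 1.18 (quartiles 0.998 and 1.41, range 0.475 to 2.69). The ratio varied between the sequence groups. In the 7SL-like group the knockout count was higher in 83 of 92 pairs, equal in 6 and lower in 3 (median ratio 1.34, quartiles 1.19 and 1.56), and in the other repeat-masked group it was higher in 229, equal in 24 and lower in 38 of 291 (1.25, 1.07 and 1.45). In the telomeric group it was higher in 15, equal in 4 and lower in 23 of 42 pairs (median ratio 0.965), and in the A-run group in 35, 9 and 32 of 76 (0.998). In the major satellite group these numbers were 1, 1 and 5 of 7 (0.948), and in the C-run group 8, 3 and 15 of 26 (0.933). With 1 sample per genotype, a difference of genotype and a difference between 2 libraries cannot be told apart, and the difference between groups was not tested.

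**Figure D2:**
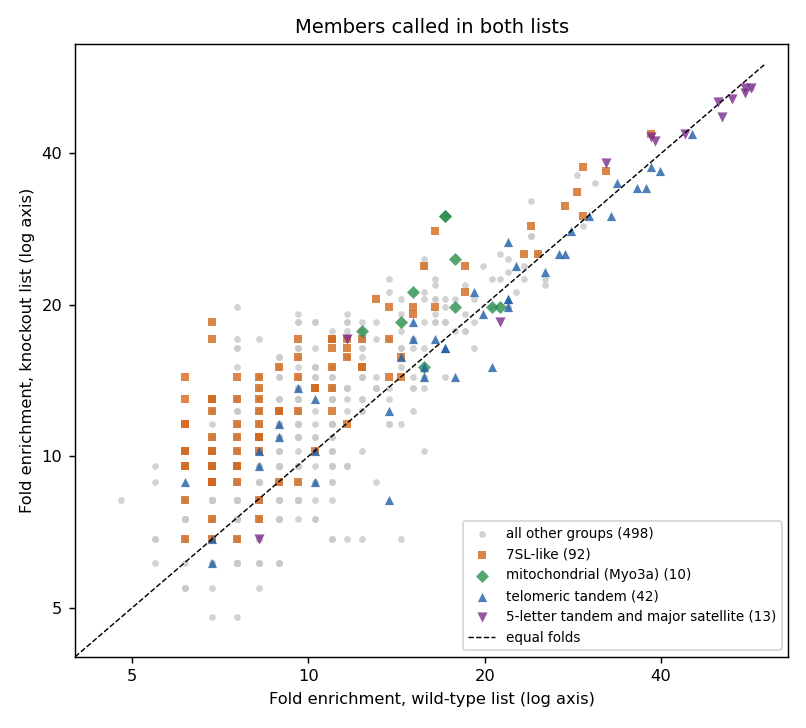
Each point is 1 of the 655 wild-type members with a knockout peak over it, with its fold enrichment in the wild-type list (x) and in the knockout list (y), both on log axes, and the dashed line marks equal folds. The 92 points of the 7SL-like group (squares) lie above the line in 83 cases, and the 42 of the telomeric group (upward triangles) lie along it, 15 above.

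The pairs with the largest ratio were led by Pik3r6, a regulatory subunit of PI3-kinase gamma, with a fold of 6.86 (9 fragments, interval 3.51 to 12.4) in the wild-type and 18.5 (26 fragments) in the knockout list. Otud7b, a deubiquitinase, had 6.86 and 17.1, and Zfyve26 had 6.17 and 14.4. These 3 summits were in the 7SL-like group. Zfp516, between Pik3r6 and Otud7b in ratio, had 7.54 and 19.8 and was in the other repeat-masked group. The 10 pairs with the largest ratio were in Pik3r6, Zfp516, Otud7b, Zfyve26, Thada, 1700025G04Rik, Nusap1, Usp29, Camk1d and Samd4b, and all had 8 to 11 fragments in the wild-type list. At the other end, an A-run summit in Nkain2, a partner of the sodium pump, had 14.4 (20 fragments) in the wild-type and 6.84 (9 fragments) in the knockout list. It was followed by Ctnna3, an alpha-catenin (12.3 and 6.84), and Rbms3, an RNA-binding protein (11.7 and 6.84). Rims1, a scaffold of the presynaptic active zone, had 13.7 and 8.21 in a telomeric repeat, and Cdh13, T-cadherin, had 15.8 and 10.3 in a C run. Mrc2, Pspc1, Dnah14, Tusc3 and Aptx completed the 10. Of these 10 summits 6 were in A or C runs and none was 7SL-like, while 4 of the 10 with the largest ratio were 7SL-like.

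Members without a peak of the other list did not reach the largest folds. The largest wild-type folds among the 135 were 10.3 in Ap1g1, an adaptor protein subunit, 10.3 in Atrnl1, 9.60 in Tenm4, a teneurin adhesion molecule, 8.91 in Asic4 and 8.91 in Cast, the calpain inhibitor. The fold of Ap1g1 came from 14 fragments, with an interval of 5.93 to 16.8. A median copy number of 2 or more was found for 55 of these 135 members (40.7%, interval 32.4 to 49.5) and for 126 of the 655 overlapped members (19.2%, 16.3 to 22.5). In the knockout list the order was the other way, with 89 of 737 (12.1%, 9.81 to 14.6) and 131 of 656 (19.97%, 17.0 to 23.2). The largest knockout folds among the 737 members without a wild-type peak were 15.7 in Slit3, the secreted ligand of Robo receptors, 15.0 in Kif13a, a kinesin, 14.4 in Kat14 and in Ccdc18, and 13.7 in Chd7, a chromatin remodeller. The fold of Slit3 came from 22 fragments, with an interval of 10.1 to 23.5. The windows of Ap1g1 and Tenm4 held a C run and an A run, and those of Slit3, Kif13a, Ccdc18 and Chd7 were 7SL-like. The window of Ap1g1 is shown as an example of the wild-type members without a knockout peak.
Ap1g1, chr8:109796867-109796967: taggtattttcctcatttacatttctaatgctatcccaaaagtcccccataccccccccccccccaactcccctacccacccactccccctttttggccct
The window of Kat14 shared no 12-letter word with the 7SL genes. Of the 135 wild-type members without a knockout peak, 37 were in the A-run and 7 in the 7SL-like group. Of the 737 knockout members without a wild-type peak, 98 were in the A-run and 87 in the 7SL-like group. Over all members, the A-run group held 113 of 790 wild-type (14.3%) and 174 of 1393 knockout members (12.5%). The 7SL-like group held 99 (12.5%) and 179 (12.8%). In the knockout list 43.7% of A-run and 51.4% of 7SL-like members were overlapped, against 47.1% of all. In the wild-type list these shares were 67.3% and 92.9%, against 82.9%.

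The octamer, sought as ATGCAAAT on either strand within 100 bp of the summit, was found in 23 of 790 wild-type members (2.91%, interval 1.85 to 4.34) and in 38 of 1393 knockout members (2.73%, 1.94 to 3.73). In equally long windows centred 1000 bp before and after the summit it was in 1.46% (0.925 to 2.18) and 1.69% (1.24 to 2.24), and 1.54% of all eligible windows of that length held it. The intervals of summit and flank overlapped in both lists, which does not show that the shares are equal. The share of eligible windows lay under the summit interval of both lists, and no difference was tested. At the other positions of chr1 to chr19 outside the dense bins the shares were 2.54% and 2.82%. With 1 mismatch allowed the shares were 21.3% and 20.96% at the summits, against 23.2% and 23.1% in the flanks. In 11 of 23 wild-type and 19 of 38 knockout members the centre of the octamer was within 25 bp of the summit. Of the 23 wild-type members with an octamer, 20 were overlapped by a knockout peak, and of the 38 knockout members 20 by a wild-type peak, beside 655 of 790 (82.9%) and 656 of 1393 (47.1%) over all members.

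Many of the octamers stood in a shared longer stretch. Written as ATTTGCAT, the octamer was followed directly by TTC in 12 of the 23 wild-type members (52.2%) and in 16 of the 38 knockout members (42.1%), against 16.8% of 5266 eligible windows with an octamer. It was followed by ATG in 1 and 4 members, against 2.47% of those windows. Without these, 10 wild-type (1.27%, interval 0.609 to 2.32) and 18 knockout members (1.29%, 0.768 to 2.03) held the octamer. Of the eligible windows with an octamer, 80.7% had neither TTC nor ATG after it. The 1.54% of all eligible windows counts every octamer, so it is not a like measure for these reduced shares. This split was chosen after the sequences were seen. Among the wild-type members with TTC after the octamer, Kcnq1 encodes a potassium channel, Exoc4 a part of the exocyst, Adgrl4 an adhesion receptor of endothelium, Cdh18 a cadherin, Sntg1 a syntrophin, Thrb a thyroid hormone receptor, and Tll1 a procollagen protease. The window of Thrb is shown as an example, on the strand read and with the octamer in capitals.
Thrb, chr14:17842741-17842788, plus strand: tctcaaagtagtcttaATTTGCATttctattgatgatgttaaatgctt
Another stretch had tttattg before the octamer. It was seen in Foxn3, a forkhead factor, Sycp1, a protein of the meiotic synaptonemal complex, Mlip, Ncam1 and Ptprm. In Foxn3 and Ncam1 neither TTC nor ATG followed the octamer, so both genes stayed in the reduced shares above. The window of Ptprm, a receptor phosphatase, is shown.
Ptprm, chr17:66790948-66790995, minus strand: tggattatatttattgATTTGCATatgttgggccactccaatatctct
Octamers outside both stretches were those of the nuclear receptor Rora, which is shown, and, among others, of Pdgfra, the PDGF receptor alpha, which had a peak in the knockout list only.
Rora, chr9:68913871-68913918, minus strand: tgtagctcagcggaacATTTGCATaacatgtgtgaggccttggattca

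The octamer summit with the largest fold was in intron 15 of 15 of Kcnq1, with 28.8 (41 fragments) in the wild-type and 36.3 (52 fragments) in the knockout list, and the octamer centre was 8.5 bp from the wild-type summit. Bbox1, an enzyme of carnitine synthesis, had 21.9 and 20.5, and Rora 15.8 and 23.9. Ube2g1, a ubiquitin-conjugating enzyme, had 14.4 and 19.2, and Slco5a1, an organic anion transporter, 13.7 and 17.1. In Bbox1 the summit was in a telomeric repeat and the octamer 89.5 bp away. Exoc4 had 12.3 and 18.5, Adgrl4 11.7 and 12.3, Cdh18 11.0 and 13.7, Sntg1 11.0 and 13.7, and Lrrc8d, a subunit of volume-regulated anion channels, 11.0 and 15.0. The summit in Lrrc8d was outside its protein-coding transcripts, with the nearest start in Zfp326. Of these 10, the knockout fold was lower in Bbox1 alone. In the knockout list the 10 largest also held Foxn3 (15.7, against 8.91 in the wild-type) in place of Adgrl4. Pdgfra had 7.52 (10 fragments) in intron 16 of 22, with the octamer centre 6.5 bp from the summit, and Mef2a, a factor of muscle gene control, had 5.47 (7 fragments). Neither had a wild-type peak over it.

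The other motifs searched were the SOX and octamer core TTGTNATGC, which shares letters with the octamer, the AP-1 site TGANTCA, the CArG box of SRF, the cAMP response element TGACGTCA, the KLF core CCACCC, the TEAD core CATTCC, which shares letters with GGAAT repeats, and the E-box CAGCTG. In the wild-type list the CArG box was in 9 members (1.14%, interval 0.522 to 2.15) against 0.886% of flanks and 1.08% of eligible windows. The KLF core was in 10.9% against 11.3% and 11.0%, and the AP-1 site in 5.70% against 6.77% and 6.03%. For the knockout members and their flanks the CArG box was at 0.790% and 0.790%, the KLF core at 10.8% and 11.8%, and the AP-1 site at 5.96% and 5.96%. The E-box was in 4.68% of wild-type members (3.32 to 6.40) against 8.61% of flanks (7.27 to 10.1), and in 6.53% of knockout members (5.29 to 7.96) against 8.72% (7.70 to 9.83). It was lower at the summit than in the flanks in both lists, and the intervals overlapped in the knockout list only. The cAMP response element was in no member of either list, with exact upper bounds of 0.466% and 0.264%, and in 0.127% and 0.179% of the flanks. The SOX and octamer core was in 3 wild-type (0.380%, interval 0.0784 to 1.11) and 7 knockout members (0.503%, 0.202 to 1.03), above the 0.190% (0.0392 to 0.554) and 0.179% (0.0583 to 0.418) of the flanks and below the 0.543% of eligible windows, and the intervals of summit and flank overlapped. The TEAD core was in 7.97% and 7.75%, against 9.05% and 9.83% of the flanks and 10.7% of eligible windows. A match of letters is not a bound site, and no match says only that the letters are not in the window.

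**Figure D3:**
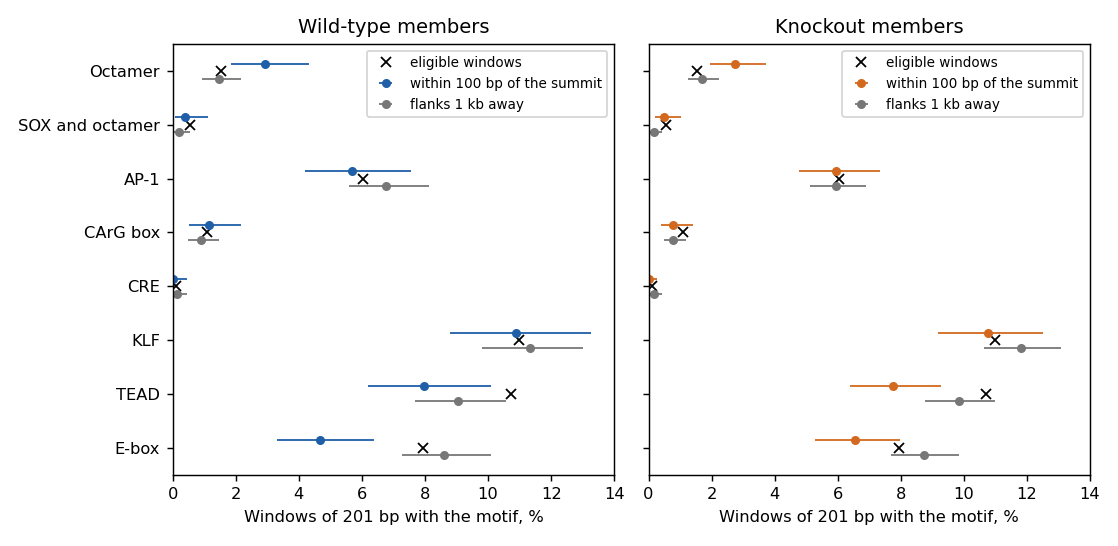
Share of windows (100 bp to each side of the centre) with each motif, in %, at the summits (coloured), in the flanks 1000 bp away (grey), both with exact 95% binomial bars, and in all eligible windows (crosses), for wild-type (left) and knockout members (right). The octamer is at 2.91% and 2.73% at the summits against 1.46% and 1.69% in the flanks, and the E-box is lower at the summits in both lists.

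Of the summits, 754 wild-type (95.4%, interval 93.7 to 96.8) and 1323 of 1393 knockout members (interval 93.7 to 96.1) were in introns of protein-coding transcripts. Exons outside the coding sequence held 19 and 35, coding exons 3 and 12, and 14 and 23 lay in a gene body but outside its protein-coding transcripts. The first intron held 22.9% and 21.3% of the summits whose intron was numbered in the longest host. The median distance to the nearest start was 34.2 kb (quartiles 17.9 and 73.0) in the wild-type and 31.3 kb (17.0 and 69.8) in the knockout list. That start belonged to another gene for 200 wild-type (25.3%) and 361 knockout members (25.9%). Host genes were long, with medians of 148 and 140 kb, against 41.0 kb over the 11320 genes that have eligible sequence. The rule itself favours long genes, since a short gene has no base that far from its start.

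The limit of 10000 bp cut through pairs of overlapping peaks. Just inside it were wild-type summits in Scamp1 (10029 bp, fold 7.54), Akap9 (10058 bp, 6.86) and Spdef (10086 bp, 8.91), and knockout summits in Snx27 (10003 bp, 8.21), Lrch1 (10005 bp, 6.16) and Tcf12 (10041 bp, 6.84). Just outside were wild-type summits in Snx27 (9998 bp, 7.54), Erc1 (9993 bp, 7.54) and Bmpr1a (9948 bp, 8.23), and knockout summits in Erc1 (9991 bp, 10.3), Bmpr1a (9946 bp, 10.9) and Prune1 (9932 bp, 11.6). The peak in Snx27 is a member in the knockout list and not in the wild-type list, at summits 5 bp apart. Of the 19 bins left out on chr1 to chr19, the least dense held 20 summits, and the densest bin kept held 19. The bins removed 172 wild-type and 154 knockout summits that met the other conditions.

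Members per Mb of eligible sequence were 1.12 in the wild-type (interval 1.05 to 1.21) and 1.98 in the knockout list (1.88 to 2.09). By chromosome they ran from 0.767 on chr15 to 1.68 on chr11 in the wild-type and from 1.29 on chr15 to 3.12 on chr11 in the knockout list, so the same chromosomes were at both ends. A wild-type member lay in 697 genes, 6.16% of those with eligible sequence, and a knockout member in 1176 genes, 10.4%. The lists shared 615 genes, which was 88.2% of the wild-type and 52.3% of the knockout genes. Most genes held 1 member. At least 2 wild-type members were in 79 genes, with a median length of 326 kb, and at least 2 knockout members in 191 genes, with a median length of 246 kb. In 26 of the 79 and 37 of the 191 all members of the gene were within 10 kb.

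Genes with several members fell into 2 kinds, with summits packed into a short stretch or scattered over a long body. Myo3a, a myosin of hair cells, held the most, 11 wild-type and 10 knockout members, all in intron 30 of 33 and within 2.74 and 2.70 kb. In 10 wild-type and 9 knockout windows at least 50% of the 16-letter words were also in the mouse mitochondrial genome. The strongest wild-type window is shown with these words in capitals, here the whole window.
Myo3a, chr2:22587798-22587898: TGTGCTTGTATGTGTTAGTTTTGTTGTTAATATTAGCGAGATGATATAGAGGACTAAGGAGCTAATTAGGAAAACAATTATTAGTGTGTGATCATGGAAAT
The 11 wild-type folds in Myo3a were 8.23, 12.3, 14.4, 15.1, 15.8, 17.1, 17.1, 17.8, 17.8, 20.6 and 21.3. The 10 knockout folds were 7.52, 11.6, 15.0, 17.8, 18.5, 19.8, 19.8, 21.2, 24.6 and 30.1, and the 2 sets overlapped over most of their range. At 1 knockout peak, of 7.52, there was no wild-type peak. Smo, the signal transducer of the Hedgehog pathway, held 4 wild-type and 5 knockout members within 0.937 and 1.14 kb of intron 1. Its wild-type folds were 21.9, 22.6, 23.3 and 25.4, and its knockout folds 6.84, 19.8, 21.2, 22.6 and 22.6, so apart from the lowest knockout value the 2 sets were close. The strongest window lay in a repeat of CAGCA, with CAGCA or TGCTG in capitals.
Smo, chr6:29748355-29748455: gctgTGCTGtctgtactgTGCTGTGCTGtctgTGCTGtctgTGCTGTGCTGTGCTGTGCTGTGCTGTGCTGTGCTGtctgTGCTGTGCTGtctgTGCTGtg
Dock2, a Rac activator of leukocytes, held 4 members in each list within 1.46 kb of intron 22, with wild-type folds of 7.54, 8.23, 9.60 and 9.60 and knockout folds of 6.16, 8.21, 8.21 and 13.0. None of the 4 wild-type summits was repeat-masked. Ppp1r9a, a neuronal actin-binding scaffold, held 3 wild-type and 2 knockout members in telomeric repeats, with the knockout summits 0.307 kb apart.

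Cdc27, a subunit of the anaphase-promoting complex, held 2 wild-type and 7 knockout members, and all were in coding exons. Exons of its protein-coding transcripts make up 12.2% of the gene body, yet the exons covered 82.7% to 100% of the bases of each knockout member and 100% of both wild-type members. The 7 knockout summits were spread over 17.3 kb, with folds of 7.52, 8.21, 8.21, 9.58, 9.58, 9.58 and 11.6. The wild-type folds were 8.23 and 10.3, at summits that a knockout peak overlapped. Cdc27 thus held 7 of the 12 knockout members in coding exons and 2 of the 3 in the wild-type list. The pattern was not tested.

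The scattered kind was led by 2 gene models of unusual length. Fgfr2, a fibroblast growth factor receptor, is annotated over 2961 kb and held 5 wild-type and 6 knockout members, and Gm20388 is annotated over 4435 kb and held 4 and 7. For 4 of the 5 wild-type summits in Fgfr2 the nearest start was that of Tacc2, Plekha1, Gpr26 or Cpxm2, and the fifth, 96.6 kb from a start of Fgfr2, had the largest fold, 20.6 against 22.6 in the knockout list. Immp2l, a mitochondrial inner membrane protease, held 3 and 4 members, with a telomeric summit of 32.9 and 30.1. Auts2, a regulator of neural gene expression, held 2 and 4, led by a repeat-masked summit of 30.9 for the wild-type and 34.9 for the knockout list. D5Ertd579e held 3 members in each list, none of them in a masked repeat, with 14.4 and 16.4, 13.0 and 13.7, and 8.23 and 8.89. Dlgap2, a postsynaptic scaffold, held 3 and 4, up to 11.7 for the wild-type and 13.7 for the knockout list. Ntm, a neural adhesion molecule, held 3 and 5, Cmss1 3 and 4, and Atrnl1 and Nkain2 3 and 2.

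The host genes were then read by 10 lists of genes, 529 entries in all, that cover SMC, the vessel wall and plaque, and long neural genes. The lists were written with earlier results of these data known, and their counts are descriptions. For scale, all genes together had 1.12 wild-type and 1.98 knockout members per Mb of eligible sequence, with median folds of 8.23 and 8.21.

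The list of SMC contractile and actin genes held 6 wild-type members (1.04 per Mb, interval 0.382 to 2.26) and 7 knockout members (1.21 per Mb, 0.488 to 2.50). Ssh2, a cofilin phosphatase, had 16.5 for the wild-type and 22.6 for the knockout list, and Phactr1, an actin regulator and a known risk locus of coronary disease, had 16.5 and 21.9. Actn1, alpha-actinin, had 9.60 and 14.4 in a 7SL-like window, and Sgcd, delta-sarcoglycan, had 9.60 and 13.0. Dst, a cytoskeletal linker, had 13.0 and 14.4 at an unmasked summit in intron 3, and a C-run summit of 6.86 in the wild-type list only. Myo1e (9.58) and Palld (6.16) had a knockout peak only. No wild-type peak lay over 2 of the 7 knockout members here, beside 737 of 1393 over all knockout members. The knockout fold was the higher in all 5 genes with a pair, as in 450 of the 655 pairs overall. No member lay in Acta2, Myh11, Tagln, Cnn1 or Myocd. Of the 38 genes of this list found on chr1 to chr19, 33 had eligible sequence. A gene without it can hold no member, so absence from a short gene follows from the rule.

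Genes of calcium and cyclic nucleotide signalling held 10 wild-type (0.708 per Mb) and 20 knockout members (1.42 per Mb). Pde1c held 2 in each list, at 45.3 and 43.8 in a telomeric repeat and at 15.8 and 13.7 in an A run. Ryr1, a calcium release channel, had 15.8 and 23.9. Cacna1d, an L-type calcium channel, held 2 and 3 members, with 11.0 and 15.0 and with 8.91 and 12.3 where both lists had a peak. Kcnma1, a calcium-activated potassium channel of SMC, held 2 knockout members of 8.21 each, and Pde4d, a cAMP phosphodiesterase, held 2 of 10.3 and 9.58, and neither gene had a wild-type member. Of the 20 knockout members 11 had no wild-type peak over them, close to the 737 of 1393 over all knockout members.

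Guidance cues and their receptors held 11 wild-type (1.03 per Mb) and 18 knockout members (1.68 per Mb). Efna5, an ephrin, had 19.9 and 19.2 in a telomeric repeat, and Robo1, a Slit receptor, had 15.8 and 20.5, with another knockout peak of 6.84. Dcc, a netrin receptor, held 2 and 4 members, from 6.16 to 8.91. Ephb1, an ephrin receptor, held 2 and 2, and Sema6d, a semaphorin, 1 and 2. Slit3 had a wild-type peak of 5.49 in intron 4 and the knockout peak of 15.7 in intron 6, at different places and each without a partner.

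Cell adhesion genes, with a median length of 608 kb, held 32 wild-type members (0.810 per Mb, interval 0.554 to 1.14) and 44 knockout members (1.11 per Mb, 0.809 to 1.49). Cdh23, a cadherin of hair cells, had the largest folds, 21.9 and 19.8, in an A run, and another knockout peak of 7.52 with an octamer. Ctnna3 held 3 and 4 members, Magi2, a junctional scaffold, 2 and 3, Nlgn1, a neuroligin, 1 and 3, and Cdh13 and the receptor phosphatase Ptprd 2 in each list. Cadm2 held 2 knockout members, of 11.6 and 6.84, and no wild-type member. No wild-type peak lay over 19 of the 44 knockout members of the adhesion genes, beside 737 of 1393 over all knockout members. Pcdh15 held 2 in each list, Cdh18 2 and 1, and Cntnap5a, Lsamp and Ptprm 1 and 2. Genes of synapses and ion channels held 22 wild-type members (0.597 per Mb, 0.374 to 0.903) and 46 knockout members (1.25 per Mb, 0.913 to 1.66). Kcnh1, a potassium channel, had 38.4 and 37.6 in a telomeric repeat. Csmd2 held 1 and 4 members, and Kcnip1, Grin2a and Grin2b held 3, 2 and 2 in the knockout list and none in the wild-type. Here no wild-type peak lay over 28 of the 46 knockout members, beside the same 737 of 1393, and no difference was tested. Asic2, Dlgap1, Gria1, Grik1 and Lrfn5 held 1 and 2, and Rims1 2 and 2. Both of these gene lists had fewer members per Mb than the average of all genes. The exact interval was under that average in both peak lists for synapses and in the knockout list for adhesion. These intervals take members as independent, the 2 peak lists share many peaks, and no difference was tested. Most other gene lists were also under that average, for example extracellular matrix genes at 0.586 and 1.25 per Mb, with intervals that include it. Above it were the growth factor (1.38) and immune (1.76) lists for wild-type members. For knockout members these were the lipoprotein (2.24) and immune (2.29) lists.

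**Figure D4:**
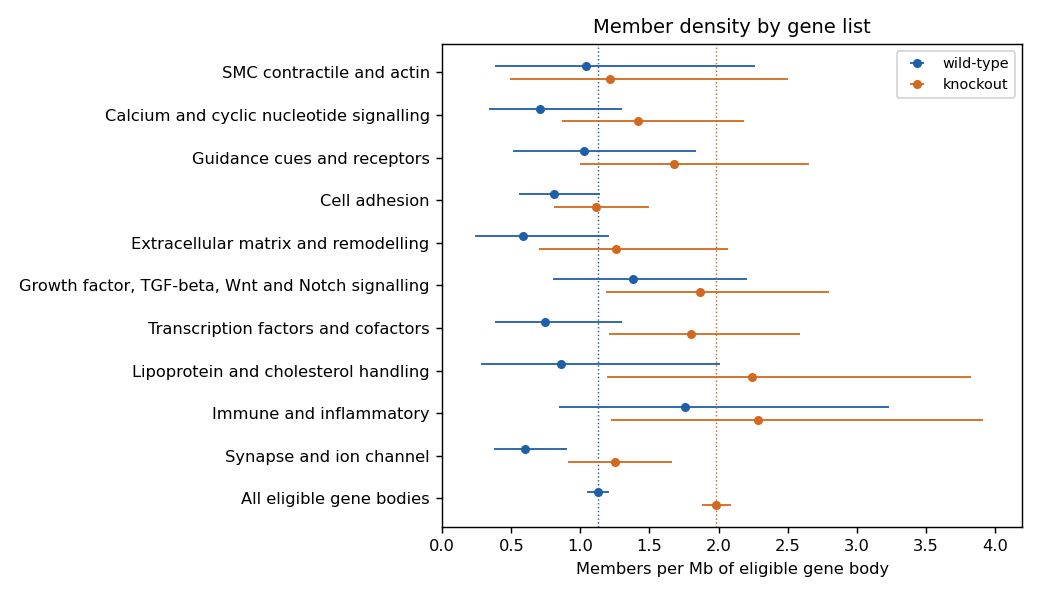
Members per Mb of eligible sequence in each of the 10 gene lists and in all genes, for wild-type (blue) and knockout members (orange), with exact 95% Poisson bars on a linear axis. Immune and inflammatory genes stand at 1.76 and 2.29 per Mb, or at 1.16 and 1.74 without Dock2, whose 4 summits in each list lie within 1.46 kb, and their bars include the value of all genes, 1.12 and 1.98.

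Genes of the extracellular matrix and its remodelling held 7 wild-type (0.586 per Mb, interval 0.235 to 1.21) and 15 knockout members (1.25 per Mb, 0.702 to 2.07). Hs6st3, a heparan sulfate sulfotransferase, had 21.9 and 26.7 in a telomeric repeat. Lama2, a laminin chain of muscle basement membrane, held 2 members in each list, with 12.3 and 14.4 at an unmasked summit and 7.54 and 7.52 at a masked one. Loxl2, a collagen cross-linking enzyme, had 7.54 and 9.58. Gpc6, a glypican, held 1 and 2 members, and Vcan, the proteoglycan versican, had a knockout peak of 8.21 only. No wild-type peak lay over 8 of the 15 knockout members here, beside 737 of 1393 over all knockout members.

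Genes of growth factor, TGF-beta, Wnt and Notch signalling held 17 wild-type (1.38 per Mb) and 23 knockout members (1.87 per Mb), of which 5 and 6 lay in the long model of Fgfr2. Ror2, a Wnt receptor, had 37.7 and 34.2 in a telomeric repeat, and Wnt7b, a Wnt ligand, had 13.7 and 12.3 in another. Notch2 had 14.4 in both lists in a 7SL-like window. Insr, the insulin receptor, and Fgf14 held 1 and 2 members, and Maml2, a Notch coactivator, 2 and 1. Pdgfra (7.52), Notch3 (6.16) and Tgfbr3 (6.84) had a knockout peak only. No wild-type peak lay over 8 of the 23 knockout members here, beside 737 of 1393 over all knockout members.

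Transcription factors and cofactors held 12 wild-type (0.745 per Mb) and 29 knockout members (1.80 per Mb). Rora held 2 in each list, with 15.8 and 23.9 and with 11.0 and 13.0. Jarid2, a cofactor of Polycomb complexes, held 2 in each list at unmasked summits of intron 3, with 9.60 and 14.4 and with 8.23 and 8.89. Hdac9, a histone deacetylase, held 1 and 2 members, with 15.8 and 14.4 in an A run, and the mineralocorticoid receptor Nr3c2 held 1 and 2, with 8.23 and 12.3 where both lists had a peak. Esrrb, an orphan nuclear receptor of stem cells, held 2 knockout members of 6.16 and 8.21 and no wild-type member. Tead1, a partner of YAP, had a knockout peak of 8.21 only. Of the 29 knockout members 18 had no wild-type peak over them, beside 737 of 1393 over all knockout members, and none of the 18 was above 10.9. Whether the list differed from all members in this was not tested. No member lay in Klf4 or Pou5f1. Of the 67 genes of this list 57 had eligible sequence, and the shortest gene with any was 10.002 kb long. Absence from a shorter gene follows from the rule and says nothing about Oct4 peaks there.

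Genes of lipoprotein and cholesterol handling held 5 wild-type (0.862 per Mb) and 13 knockout members (2.24 per Mb). Lipc had 29.5 and 37.6 at the 7SL-like summit already described and knockout peaks of 10.3 and 8.21 in intron 1. Lrp1b, a giant lipoprotein receptor, held 2 in each list, with 28.1 and 28.0 in a telomeric repeat and 10.3 and 15.0 in an A run. Sorcs1, a sorting receptor, held 1 and 2, with 17.1 and 16.4 in a telomeric repeat, and Sorl1, another, held 2 knockout members of 10.3 and 6.16. Abca1, the cholesterol exporter of macrophages, had a knockout peak of 6.84 only. No wild-type peak lay over 8 of the 13 knockout members of the lipoprotein genes, beside 737 of 1393 over all knockout members. Immune and inflammatory genes held 10 wild-type (1.76 per Mb, interval 0.844 to 3.24) and 13 knockout members (2.29 per Mb, 1.22 to 3.91), 4 of each in Dock2. Without Dock2 there were 6 (1.16 per Mb, 0.426 to 2.52) and 9 (1.74 per Mb, 0.795 to 3.30). Mrc1, the mannose receptor of macrophages, had 10.3 and 13.7, and Stat3, a cytokine-activated factor, had 7.54 and 8.89, both in 7SL-like windows of an early intron. Inpp5d, the phosphatase SHIP of blood cells, held 1 and 2, from 6.84 to 8.89, and Arhgap15 had 8.91 and 15.0.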

How the data were processed

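The narrowPeak lists of Oct4 ChIP-seq from 1 sample per genotype were used. The authors aligned reads with Bowtie to GRCm38.p6 (GENCODE M21), used SAMtools to drop duplicate reads and took peaks from MACS2 at q under 0.05. The control of the call is not given in the sources used here. The deposited columns hold a score, a fold enrichment (a ratio), a p-value and a q-value as −log10, and the summit offset. The list deposited as wild-type over knockout equals the wild-type list in 5455 of 5455 entries and was not used again. Klf4 ChIP-seq, RNA-seq and single-cell data were not analysed here.

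Summits were placed in GENCODE M21 genes. A peak that shared at least 1 bp with a peak of the other list counted as overlapped. Sequence, soft-masking and word copies (words of 31 bases over 65 reference sequences) came from the RefSeq copy of GRCm38.p6, in windows of 100 bp to each side of the summit. Sequence groups were tried in the order mitochondrial (at least 50% of words of 16 bases), telomeric (3 copies), GGAAT (4 copies), major satellite, 7SL-like (1 shared word of 12 bases with Rn7s1 or Rn7s2), runs of A or C (12 bases), other tandem repeats (units of 2 to 6 bases over 24 bp), other repeat-masked and not repeat-masked. Shares have exact Clopper-Pearson and densities exact Poisson 95% intervals. Python 3.11.15, numpy 2.4.6, pandas 2.3.3, scipy 1.17.1, numba 0.67.0 and matplotlib 3.10.9 were used, and the scripts were tested on simulated data.

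The members, gene lists and groups were chosen with earlier results of these data known. Genes were named by rule: the 10 with the most members per list, the 10 largest folds, the 5 largest folds without a peak of the other list, the 10 largest with an octamer, listed genes with at least 2 members, the 10 largest and 10 smallest fold ratios, and 3 peaks on each side of the distance limit. Further listed genes and the printed windows were chosen after their values were seen. The sequences of some windows are not reported here. Alternatives were another distance, all transcript starts, other bins, q limits, masking rules and windows.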

Additional observations from a re-analysis of the deposited data

How the results depend on the processing

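Of 88 alternative values over 16 results, 74 stayed within the counting interval or within 1.5 times the count, and 14 moved. The octamer share rose to 21.3% of wild-type and 20.96% of knockout members with 1 mismatch allowed, a looser rule by construction. With dense bins kept, the share of masked summits was 74.7% and 78.9%, members per Mb were 1.36 and 2.19, and 50.6% of knockout members were overlapped. With masking asked of at least 50% of the bases within 100 bp, the shares were 52.2% and 47.7%. Members per Mb were 1.02 and 1.73 at a distance over 20000 bp. With the starts of all annotated genes, which leave less eligible sequence, there were 900 knockout members (1.79 per Mb), and 123 genes held several. The wild-type list fell in a like way, from 790 to 528 members and from 79 to 53 such genes, just within the limit of 1.5 times. For the other values the cause was not tested. Leaving Dock2 out of the immune and inflammatory genes, chosen after seeing the data, gave 1.16 and 1.74 members per Mb. No paired analysis was possible because there was 1 ChIP sample per genotype. The lowest summit held 5 fragments, and members without a peak of the other list had medians of 9 and 10 fragments, so a peak missing from a list does not show that signal was absent.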

Other observations

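Some words of 12 letters within 50 bp of the summits were shared by many members in both lists, counted on either strand after these windows had been seen, with no test. The word AGTAGCTGGGAC, which is part of the 7SL RNA genes, was in 16 wild-type (2.03%) and 33 knockout members (2.37%), against 0.00287% of eligible windows. The word CCTGTAATCCCA was in 61 (7.72%) and 117 members (8.40%), against 0.0364% of windows, and GAGGCTGAGGCA was in 60 (7.59%) and 101 (7.25%), against 0.0430%. The word AGGCATGAGCCA was in 24 (3.04%) and 53 (3.80%), against 0.0103%. A knockout peak lay over 90.0% to 93.8% of the wild-type members with these 4 words, and a wild-type peak over 41.5% to 53.5% of the knockout members. The telomeric word AACCCTAACCCT was in 44 members of each list, and 95.5% of them were overlapped in both.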
